A study of Mus musculus with 12 samples.

Results

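The apical and basal turns of the wild-type mouse cochlea were compared at postnatal day 14 (P14) in 4 RNA-seq libraries, 2 of the apex and 2 of the base, chosen by their labels from the 12 libraries of the series. The 8 libraries not compared here are 2 of the wild-type middle turn, whose values are given beside those of the ends, and 6 of mice homozygous for the 35delG deletion in Gjb2. Each library was made from the total RNA of a piece of cochlea, which had been cut into equal apical, middle and basal pieces. Which of the surrounding tissues stayed on the pieces is not stated in the sources used here. The wild-type mice were males purchased from a supplier as age-matched controls, and no treatment or further allele is given for them. Their strain, the number of cochleae in a library and whether an apical and a basal library came from the same mouse are not given in the sources used here. The libraries of a turn are called biological repeats, so a p-value here rests only on the spread between 2 such samples of a turn. The test also drew the spread of each gene toward that of other genes of similar level. The standard error (SE) and p of a gene are thus not from its own repeats alone.

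Sound is mapped to place along the cochlear spiral, with low frequencies detected at the apex and high frequencies at the base. The organ of Corti, which runs along the whole spiral, holds inner hair cells that signal to the auditory nerve, outer hair cells that amplify vibration, and supporting cells coupled by gap junctions. The basilar membrane beneath it and the tectorial membrane above it change in width and stiffness along the spiral, and so do the bundles and ion channels of the hair cells. At P14 a mouse begins to hear. Hair cells are a small part of the cochlea, which also holds spiral ganglion neurons with their myelin, the stria vascularis, connective tissue, bone with marrow, and blood. In such bulk samples, fewer cells of a type and less RNA per cell cannot be told apart.

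The values are FPKM, read fragments scaled to the length of the transcript and the size of the library, divided by a scaling factor per library. This factor lay between 0.961 and 1.04 in the 4 libraries compared and was 0.912 and 0.888 in the middle libraries. The table holds 37432 genes, of which 14743 reached 1 FPKM in at least 2 of the 4 libraries and were tested. Differences are given as base minus apex on the scale of log2(scaled FPKM + 1), which understates the fold of genes near 1 FPKM. The FPKM sums of the 4 libraries lay between 316425 and 408162. These sums are not a depth, and the files give no read counts, so the depth and the counting error are unknown. Transcripts of the mitochondrial genome took 9.96% and 9.86% of the FPKM in the apical, and 8.86% and 17.1% in the basal libraries. Every wild-type library had at most 0.0749 scaled FPKM of the female-specific Xist and at least 19.6 of the Y-linked Ddx3y.

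The basal repeats stood far apart. On the Euclidean distance over the genes tested, the apical repeats lay 36.5 apart and the basal repeats 96.5. The distances between an apical and a basal library were 82.7, 94.2, 92.4 and 100.6. The basal repeats thus lay within the range of the distances between the turns. Base library 2 was nearer to the middle libraries (78.3 and 82.3) than to base library 1. Of the genes tested, 188 (1.28%) differed over 2-fold between the apical repeats and 1967 (13.3%) between the basal repeats. Both basal libraries lay over 2-fold above the apical mean for 250 genes and over 2-fold below it for 326. For 42 genes base library 2 was over 2-fold above and base library 1 over 2-fold below that mean, and for 24 genes the reverse held.

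**Figure D1:**
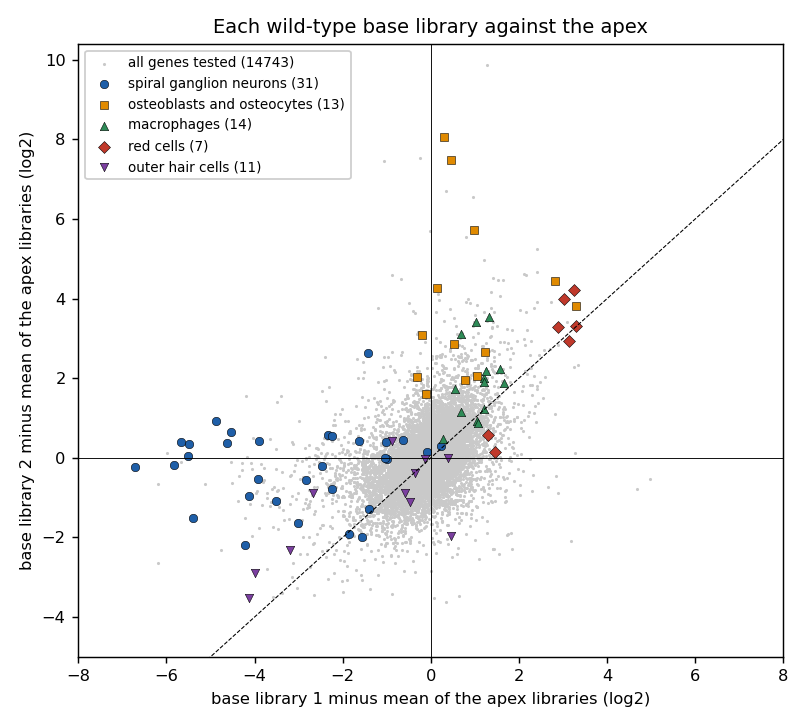
Difference of each wild-type basal library from the mean of the apical libraries in log2(scaled FPKM + 1), with library 1 on the x axis and library 2 on the y axis, for 14743 genes (grey) and the tested members of 5 marker lists (coloured). Red cell genes and the lowest outer hair cell genes lie near the dashed line of equal difference, whereas most neuronal genes lie far to the left and most bone genes well above it, which shows in which of the basal libraries they differ from the apex.

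A gene was called where limma gave an adjusted p (Benjamini-Hochberg) under 0.01 together with a difference of over 2-fold. With the 4 libraries this held for 0 genes (0% of those tested). The smallest adjusted p was 0.161, and 2842 genes (19.3%) had an unadjusted p under 0.05. An exact permutation test of 2 against 2 libraries cannot go below p = 0.333. Genes are therefore described by their values and by whether the libraries overlap. Of the genes tested, 57.0% had both basal libraries above both apical libraries or below them. With a fold change over 2 as well, 571 genes (3.87%) were higher in the base and 726 (4.92%) higher in the apex. After rescaling to an equal sum of FPKM, which moved the median difference of all genes from −0.02 to −0.24, these counts were 363 and 1207. A fit that took the spread from all 12 libraries, homozygous ones included, left the differences as they were and called 15 genes. Of these, 6 were higher in the base (0.0407%) and 9 higher in the apex (0.0610%), and none overlapped between the turns. That fit gives each gene 1 spread for every turn and genotype. Between the wild-type repeats, however, 13.3% of genes differed over 2-fold in the base, 4.36% in the middle and 1.28% in the apex.

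The 9 apical genes called with that wider spread were led by Slc26a5, which encodes prestin, the motor protein of outer hair cells. Its scaled FPKM was 26.8 and 27.2 in the apex and 0.596 and 1.45 in the base. The difference was −3.82 (SE 0.258), with an adjusted p of 0.161 from limma on 4 libraries and of 0.00485 with the spread of all 12. Ppp1r17, which encodes an inhibitor of protein phosphatases, had 11.7 and 16.4 in the apex and 0.239 and 0.315 in the base, and Kcnk3, a background potassium channel gene, had 17.1 and 11.3 against 0.124 and 1.17. Tacr1, the substance P receptor gene, had 5.48 and 3.78 in the apex, was listed at 0 in base library 1 and had 0.0938 in base library 2. The other 5 were Notumos, Strip2, Tmem229a, Sapcd2 and Gm48405, with differences between −3.39 (Notumos) and −2.28 (Sapcd2). Gm48405 is annotated with the biotype TEC, a transcript of unsettled status. Notumos is the antisense partner of Notum, the gene of an enzyme that inactivates Wnt ligands, on chromosome 11 (Notum 120653788-120660829 on the minus strand, Notumos 120659157-120661815 on the plus strand of mm10). Notum itself had 77.7 and 44.4 in the apex and 8.47 and 4.47 in the base. The 2 genes overlap, and the sources used here do not state whether strand was used, so their reads may not be told apart.

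All 9 apical genes were also low in the middle turn. Slc26a5 had 0.0261 and 0.905 there, Ppp1r17 0.252 and 0.375, and Kcnk3 0.634 and 0.571. The highest middle value was 15.6, of Tmem229a, which lay between its apical values of 38.0 and 46.6 and its basal values of 7.42 and 7.57.

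The 6 basal genes called with the spread of all 12 libraries were Ly6a, Slc13a4, Fam180a, Gm11747, Hoxa2 and Ctsh. Ly6a, which encodes the surface protein Sca-1, had 5.32 and 3.91 in the apex and 46.5 and 58.6 in the base (difference 3.26, SE 0.213). The middle turn had 16.8 and 26.3 for Ly6a, between the ends. Slc13a4, a sulfate transporter gene, had 4.43 and 3.15 in the apex and 21.8 and 35.4 in the base. Ctsh, the gene of a lysosomal protease, had 26.3 and 23.5 in the apex, 39.1 and 39.3 in the middle and 63.6 and 68.6 in the base. In each of these 6 genes both middle libraries lay between the apical and the basal ones.

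Hoxa2, a homeobox gene that patterns the hindbrain and the second pharyngeal arch, was listed at 0 in both apical libraries. It had 1.21 and 0.749 scaled FPKM in the middle turn and 3.92 and 2.54 in the base, which makes an order from apex to base without overlap. No fold is given against values of 0, which can be failed estimates: mt-Co2, a mitochondrial gene that every cell uses, had 9.69 and 10.6 in the apex and 16.2 in base library 1 and was listed at 0 in base library 2. Of the 21 Hox genes in the table it was the only gene that passed the filter, and no other reached more than 0.236 in any wild-type library. It lies on the minus strand of chromosome 6 (52162417-52164831, mm10).

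**Figure D2:**
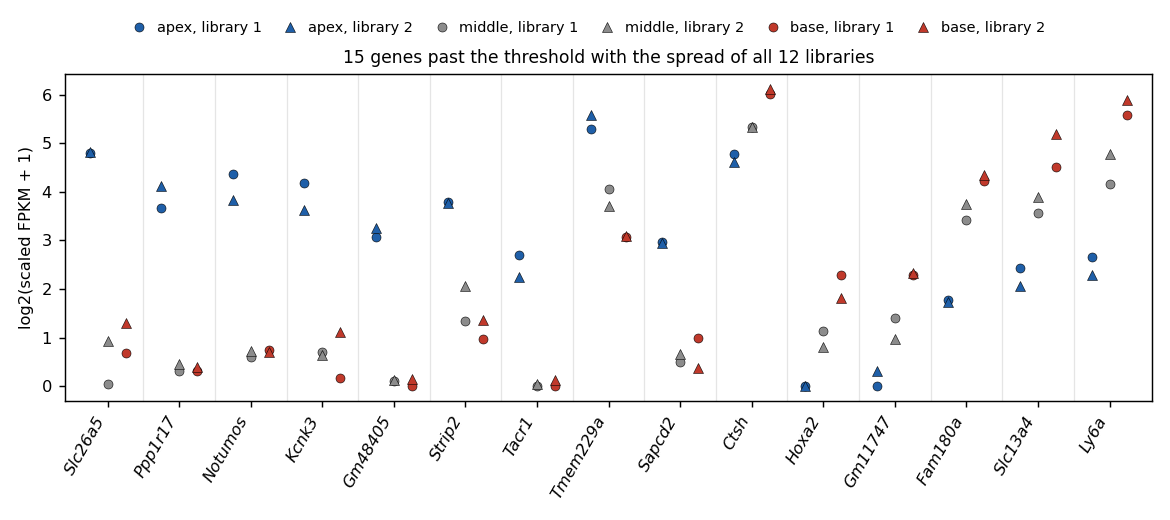
Level of the 15 genes called with the spread of all 12 libraries, as log2(scaled FPKM + 1) on the y axis, in the 2 libraries of each wild-type turn (apex blue, middle grey, base red; circles library 1, triangles library 2). In 8 of the 9 genes on the left the middle turn sits near the base level, whereas the 6 genes from Ctsh to Ly6a step up from apex through middle to base.

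Many hair cell genes were higher in the apex. After Slc26a5, the widest differences among the outer hair cell genes shown were those of Ocm and Strc. Ocm, which encodes the calcium buffer oncomodulin of outer hair cells, had 356 and 349 in the apex and 21.3 and 46.9 in the base (difference −3.44, SE 0.414). Strc, the gene of stereocilin, which joins the bundle of the outer hair cell to the tectorial membrane, had 14.2 and 13.2 against 0.611 and 1.92. Both basal libraries lay far below the apex in these genes. Chrna10, a subunit of the receptor for efferent nerve signals, had 18.1 and 16.7 in the apex but 1.87 and 8.99 in the base, where the repeats differed as widely as the turns. Of 11 outer hair cell genes tested, 4 were higher in the apex without overlap and over 2-fold, and 0 in the base, with a median difference of −0.76 against −0.02 over all genes. For this list and those below, the same counts over all genes tested were 4.92% in the apex and 3.87% in the base.

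Genes that inner and outer hair cells share, or that mark inner hair cells, took several patterns. Myo7a, a myosin of every hair cell, had 13.7 and 13.4 in the apex and 4.79 and 5.12 in the base (difference −1.29, SE 0.140). Otof, which encodes otoferlin, the calcium sensor of the inner hair cell synapse, had 59.2 and 61.1 in the apex and 32.3 and 20.8 in the base. Pou4f3, a transcription factor of hair cells, had 18.9 and 19.2 against 13.4 and 7.80. The apex was the higher in these 3 genes, without overlap. Espn, an actin bundler of stereocilia, overlapped with 14.6 and 13.9 in the apex and 10.2 and 16.0 in the base. Cabp2, a calcium-binding protein of hair cell synapses, had 20.97 and 24.0 in the apex and 28.0 and 31.7 in the base, the opposite order. Slc17a8, the glutamate transporter of inner hair cell vesicles, was at 30.5 and 31.2 in the apex and at 28.3 in base library 1 but 4.96 in base library 2.

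Of 18 common hair cell genes, 6 were higher in the apex without overlap and over 2-fold and 0 in the base (median −0.80). These 6 include Chrna10, also counted above with the outer hair cell genes. They also include Dnm1, with 47.9 and 61.5 in the apex, 91.1 and 88.8 in the middle and 16.5 and 33.7 in the base. Base library 1 was below both apical libraries in 17 of the 18 genes and above both in 0. Base library 2 was below both in 11 and above both in 6. Of the 10 inner hair cell genes, 4 were higher in the apex by that measure and 0 in the base (median −0.56). The largest of these differences was that of Calb2, which many neurons also express. Of 13 mechanotransduction genes 6 were higher in the apex and 0 in the base (median −0.95), led by Clrn2, a clarin gene, with 10.04 and 10.52 against 1.46 and 1.10. Tmc1, the gene of the transduction channel, had 9.05 and 9.96 in the apex and 6.54 and 3.83 in the base. With 1 basal library left out, the medians of these 4 hair cell lists lay between −1.12 and −0.49. The outer hair cell genes were low in the middle turn too, and summed to 541 and 523 scaled FPKM in the apex, 83.8 and 115 in the middle and 148 and 168 in the base. Ocm alone made up most of the apical sums. Cdh1, which overlapped between the ends, had 35.7 and 43.1 in the middle and 64.4 and 49.3 in the base. The mean log2 level of the 11 tested genes was 4.32 and 4.26 in the apex, 1.69 and 2.57 in the middle and 2.88 and 3.06 in the base.

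**Figure D3:**
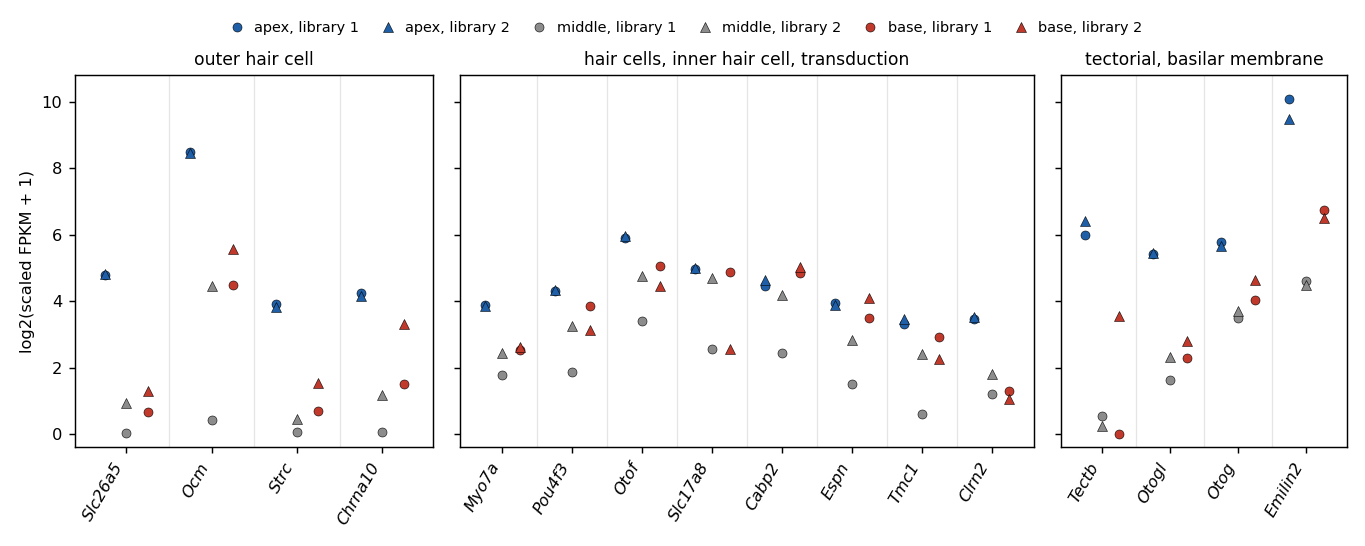
Level of hair cell and membrane genes in log2(scaled FPKM + 1) in the 2 libraries of each wild-type turn (apex blue, middle grey, base red; circles library 1, triangles library 2). The outer hair cell genes Slc26a5, Ocm and Strc show wide gaps between the apex and both other turns, while Cabp2 is higher in the base than in the apex and Espn overlaps.

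The promoter of Slc26a5 is shown because this gene had the largest difference among the genes called with the wider spread. It is the RefSeq sequence (build GRCm38.p6) of the 150 bases before the annotated start, at chr5:21865605-21865754 on the minus strand, written 5′ to 3′. The gene spans 21810655-21865604 in the deposited table. It was searched on both strands for the core of the RUNX motif, TGTGGT. The other letters searched were the GATA motif, here taken as AGATAA, the CCAAT box and the TATA box, here taken as TATAAA. The sequence holds none of them, so it has no capitals.
Slc26a5: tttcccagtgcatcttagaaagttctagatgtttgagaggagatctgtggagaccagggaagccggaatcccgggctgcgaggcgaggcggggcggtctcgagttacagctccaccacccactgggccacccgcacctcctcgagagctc

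Some genes of the membranes around the hair cells were among those with the largest differences, with the apex the higher. Emilin2, the gene of an extracellular matrix protein of the basilar membrane, had 1088 and 717 in the apex, 23.5 and 21.5 in the middle and 106 and 90.4 in the base (difference −3.16, SE 0.308). Tectb, which encodes β-tectorin of the tectorial membrane, had 62.5 and 83.8 in the apex, was listed at 0 in base library 1 and had 10.7 in base library 2. In the middle turn it had 0.471 and 0.175. Otogl, the otogelin-like gene, had 41.8 and 43.0 in the apex, 2.09 and 3.95 in the middle and 3.94 and 5.95 in the base (difference −2.89, SE 0.215). For these 3 genes the apex was above both other turns in every library. The collagen genes of the same list lay the other way. Col2a1 had 116 and 134 in the apex and 300.2 and 378 in the base, and Col9a1 had 62.1 and 69.4 against 310.3 and 146. Both are also cartilage genes, and Chad, a cartilage matrix gene, had 8.26 and 8.36 against 39.8 and 41.5 (difference 2.16, SE 0.129). Of the tectorial membrane genes, Ceacam16 had the highest level and overlapped, with 2025 and 2147 in the apex and 2277 and 399 in the base. Among the 9 tectorial membrane genes tested, 3 were higher in the apex and 3 in the base by over 2-fold without overlap, so the list as a whole had no direction. Its median of −0.89 became 0.22 with base library 1 alone.

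A list of 38 genes reported as graded along the spiral, or proposed to be, was compiled by hand with earlier results of these data known. The direction reported for each gene is not given here, so the list does not check those reports. Of its genes, 33 were tested. Of these, 14 were higher in the apex without overlap and over 2-fold and 0 in the base, with a median of −0.80 that was −1.24 without base library 2. Several of the 14 are the hair cell, membrane and nerve genes described here. Fgf10, a growth factor gene of the sensory epithelium, had 11.8 and 15.2 in the apex, 18.3 and 19.0 in the middle and 1.26 and 2.19 in the base (difference −2.42, SE 0.257). Fst, the gene of the activin and BMP antagonist follistatin, had 7.35 and 7.94 in the apex against 1.51 and 3.502. Bmp4, a growth factor gene, overlapped with 14.9 and 16.1 in the apex and 14.97 and 18.9 in the base. Bdnf, a neurotrophin gene, had 3.78 and 3.91 in the apex and 1.86 and 2.01 in the base, whereas Ntf3 had 2.30 and 1.91 against 3.31 and 0.704.

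Retinoic acid genes took both directions. Aldh1a3, which makes retinoic acid, had 24.5 and 32.1 in the apex, 41.1 and 67.0 in the middle and 2.10 and 8.92 in the base. Aldh1a1, another enzyme of that step, had 66.3 and 86.1 in the apex and 125 and 127 in the base. Crabp1, a binding protein, and Rxrg, a receptor, were at 3.83 and 3.86 and at 2.95 and 3.52 in the apex, and at most 1.02 and 0.696 in the base. Of 15 such genes tested, 3 were higher in the apex and 1 in the base by over 2-fold without overlap (median 0.09). In BMP, activin and follistatin signalling these counts were 1 and 2 of 28 (median −0.09), and in hedgehog signalling 1 and 0 of 11 (median 0.18, which was −0.01 after rescaling to an equal sum).

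Supporting cell genes were mixed. Fgfr3, a receptor gene of pillar and Deiters' cells, had 45.7 and 49.8 in the apex and 12.5 and 10.3 in the base (difference −1.98, SE 0.161), and Prox1, a transcription factor of the same cells, had 3.08 and 5.42 against 0.282 and 1.01. The middle turn had 5.24 and 7.10 for Fgfr3 but 7.84 and 4.81 for Prox1. Gjb2 and Gjb6, which encode connexin 26 and connexin 30 of the cochlear gap junctions, were not lower in the base. Gjb2 had 245 and 251 in the apex and 436 and 257 in the base (difference 0.43, SE 0.338, adjusted p = 0.507 from limma), and quantile normalization turned its sign. Gjb6 had 164 and 154 in the apex and 293 and 272 in the base (difference 0.83, SE 0.194, adjusted p = 0.201 from limma), so that both basal libraries were the higher. Both genes are used by the connective tissue of the lateral wall as well. Of 23 supporting cell genes, 7 were higher in the apex and 1 in the base by over 2-fold without overlap (median −0.55, and −0.29 without base library 1). The 7 include Emilin2, which was described above with the membrane genes.

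Neuronal genes were low in base library 1, and as a group not in base library 2. The 32 spiral ganglion neuron markers summed to 1671 and 2342 scaled FPKM in the apex, 3841 and 5001 in the middle, and 120 and 1653 in the base. Snap25, a protein of synaptic vesicle release, had 146 and 219 in the apex, 2.18 in base library 1 and 159 in base library 2. Slc17a7, the vesicular glutamate transporter of the neurons, had 36.7 and 49.0 in the apex and 0.0272 and 14.2 in the base. On the log2 scale the basal repeats of both genes differed from each other by more than base library 2 differed from the apex.

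The median difference of the 31 neuronal genes tested was −1.79, and 11 were higher in the apex without overlap and over 2-fold. With base library 1 left out the median was −0.02, and with base library 2 left out it was −2.84. For 31 genes of the synaptic vesicle cycle the median of −0.94 became −0.23 and −1.84. Whether base library 1 lacks part of the ganglion, or whether its neurons hold less of these transcripts, was not tested. Calb2, the calretinin gene, was lower in both basal libraries, with 549 and 752 in the apex, 904 and 1403 in the middle and 33.7 and 140 in the base (difference −3.20, SE 0.747). Potassium channel genes of neurons took both patterns. Kcnc1 had 15.2 and 25.3 in the apex, was listed at 0 in base library 1 and had 8.78 in base library 2. Kcna1 had 29.0 and 42.9 in the apex and 8.85 and 7.99 in the base, where the repeats lay close together. Of 28 potassium and HCN channel genes 11 were higher in the apex and 1 in the base (median −0.86, and −0.68 without base library 1).

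Some genes of the myelin of Schwann cells were lower in both basal libraries. Cldn19, a claudin of the Schwann cell, had 26.4 and 27.0 in the apex, 21.5 and 41.4 in the middle and 8.32 and 4.69 in the base (difference −1.93, SE 0.280). Of 20 genes of Schwann cells and myelin, 6 were higher in the apex and 1 in the base by over 2-fold without overlap. The median of −0.38, which was −0.94 without base library 2, covers genes that central glia share. Mbp, used by peripheral and central myelin alike, had 521 and 510 in the apex and 330 and 3265 in the base, where base library 2 stood out.

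**Figure D4:**
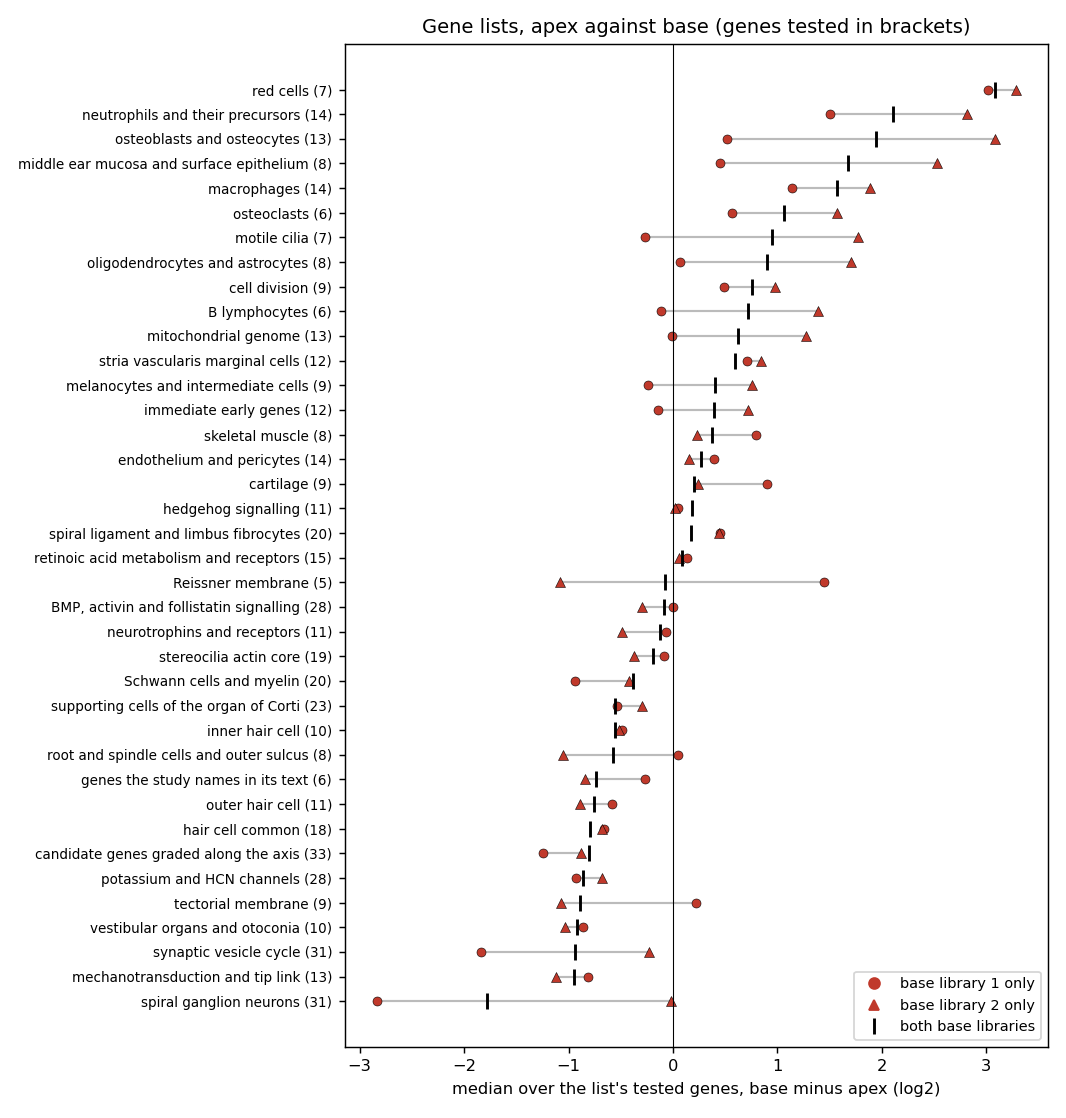
Median difference of 38 gene lists, base minus apex in log2(scaled FPKM + 1) on the x axis, with the number of tested genes in brackets. The black bar is the median with both basal libraries, the circle with base library 1 alone and the triangle with base library 2 alone. The circle and triangle lie close together for red cells and most hair cell lists and far apart for neurons, bone and middle ear mucosa.

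The base was the higher turn for most marker genes of red cells, macrophages, neutrophils and bone. Of the 7 red cell genes tested 5 were higher in the base without overlap and over 2-fold and 0 in the apex, with a median of 3.09 that moved only between 3.02 and 3.29 with either basal library left out. Hbb-bs, a β-globin gene, had 264 and 127 in the apex, 316 and 910 in the middle and 1764 and 3420 in the base (difference 3.74, SE 0.575). Hba-a1, an α-globin gene, had 121 and 54.4 against 809 and 817. Alas2, the first enzyme of heme synthesis in red cells, had 5.55 and 2.72 against 35.5 and 47.3. Hba-a1 and Hba-a2 are near-identical copies, as are Hbb-bs and Hbb-bt, and since only uniquely mapped reads were kept, reads that copies share may be missing from both, which makes their levels uncertain. Klf1, Rhag and Epb42, which red cell precursors use, stayed under 1 FPKM in the 4 libraries and were not tested.

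Macrophage genes were higher in both basal libraries for all 14 markers tested, and over 2-fold for 10 of them (median 1.57). C1qb, a complement gene, had 13.5 and 11.5 in the apex, 43.2 and 27.9 in the middle and 38.7 and 62.6 in the base (difference 1.90, SE 0.280). Tyrobp, an adaptor of myeloid receptors, had 10.7 and 9.19 against 26.3 and 125. The median was at least 1.14 with either basal library left out. Neutrophil genes had a larger median of 2.11, with 11 of 14 higher in the base and 0 in the apex, but their apical repeats differed as well. S100a8, an abundant neutrophil protein, had 87.4 and 12.3 in the apex and 151 and 831 in the base, and without apex library 1 the median of the list was 3.23 and without apex library 2 it was 1.04.

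Bone genes were higher in the base, and most of them by much more in base library 2. Mepe, a matrix protein of osteocytes, had 1.46 and 3.65 in the apex, 27.1 and 36.6 in the middle and 32.2 and 46.7 in the base (difference 3.56, SE 0.392). Ibsp, the bone sialoprotein gene, had 18.6 and 51.9 in the apex, 709 and 396 in the middle and 227 and 700.1 in the base. For both genes the middle and basal libraries were all above the apical ones. Bglap, the osteocalcin gene, behaved differently, with 2.35 and 4.11 in the apex, 4.13 in base library 1 and 1107 in base library 2. Of 13 genes of osteoblasts and osteocytes 9 were higher in the base without overlap and over 2-fold and 0 in the apex. The median of 1.95 became 3.08 without base library 1 and 0.52 without base library 2. Bglap and Bglap2 are close copies too, so their levels are uncertain in the same way. Dmp1, Ibsp, Mepe and Spp1 neighbour each other on chromosome 5, and Spp1, which many cells use, overlapped with 932 and 924 in the apex and 859 and 2820.3 in the base.

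The sequences before the starts of 4 basal genes are shown because Mepe, Ibsp and the globin genes were higher in both basal libraries. They are RefSeq sequences (build GRCm38.p6) of 150 bases that end at the base before the RefSeq start, written 5′ to 3′, at chr5:104325179-104325328 (Mepe, plus strand), chr5:104299137-104299286 (Ibsp, plus strand), chr7:103827929-103828078 (Hbb-bs, minus strand) and chr11:32283522-32283671 (Hba-a1, plus strand). The deposited table starts Mepe and Hbb-bs where RefSeq does, but Ibsp at 104299171 and Hba-a1 at 32283511, so that most of the Ibsp sequence and all of the Hba-a1 sequence lie inside the gene of that table. Capitals mark each match, on either strand, to one of the same motifs.
Mepe: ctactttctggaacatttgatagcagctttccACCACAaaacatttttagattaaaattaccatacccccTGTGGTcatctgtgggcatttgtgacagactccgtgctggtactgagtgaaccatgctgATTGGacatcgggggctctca
Ibsp: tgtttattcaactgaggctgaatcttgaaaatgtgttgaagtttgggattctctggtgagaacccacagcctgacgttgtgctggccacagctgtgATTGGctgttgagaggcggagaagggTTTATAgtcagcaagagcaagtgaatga
Hbb-bs: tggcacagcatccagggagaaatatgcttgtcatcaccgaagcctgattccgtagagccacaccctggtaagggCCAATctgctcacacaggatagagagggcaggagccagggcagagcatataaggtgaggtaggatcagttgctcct
Hba-a1: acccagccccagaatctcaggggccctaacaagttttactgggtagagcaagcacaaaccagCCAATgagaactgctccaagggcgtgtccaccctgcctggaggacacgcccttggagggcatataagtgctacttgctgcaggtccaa

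The Mepe sequence holds TGTGGT at 80 to 75 bases before the start and its reverse complement at 118 to 113. Each of the 4 sequences holds CCAAT or its reverse complement, at 21 to 17 (Mepe), 54 to 50 (Ibsp), 76 to 72 (Hbb-bs) and 88 to 84 bases before the start (Hba-a1). Among all 32851 promoters in the RefSeq table, the same window holds TGTGGT in 8.40% and CCAAT in 24.5%, on either strand. Of the tested bone genes with an entry, 4 of 9 hold TGTGGT and 6 of 9 CCAAT, of the red cell genes 0 of 5 and 4 of 5, and of the outer hair cell genes, which lay the other way, 2 of 6 and 1 of 6. These are matches of letters, not measured binding.

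**Figure D5:**
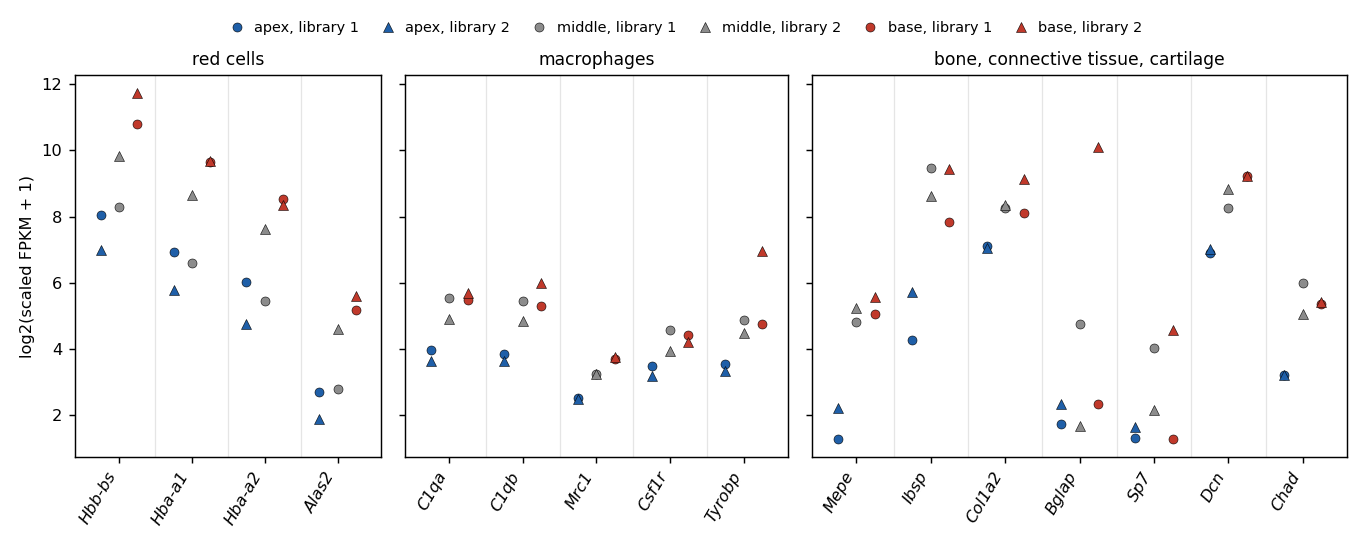
Level of red cell, macrophage and bone or connective tissue genes in log2(scaled FPKM + 1) on the y axis, in the 2 libraries of each wild-type turn (apex blue, middle grey, base red; circles library 1, triangles library 2). Globin, complement, Mepe, Dcn and Chad levels are higher in both basal libraries, whereas of the apical and basal libraries base library 2 alone is high in Bglap and Sp7.

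Genes of the fibrocytes of the spiral ligament and limbus took both directions. Dcn, the decorin gene of fibrocytes, had 120 and 129 in the apex, 307 and 457 in the middle and 593 and 599.7 in the base (difference 2.25, SE 0.209). Car3, a carbonic anhydrase gene, had 114 and 159 in the apex and 335 and 425 in the base. Of 20 fibrocyte genes, 7 were higher in the base and 0 in the apex by over 2-fold without overlap. In all, 11 had a higher mean log2 level in the base and 9 in the apex, and the median of 0.17 was −0.09 after rescaling to an equal sum and 0.45 with either basal library left out. Coch, the most abundant member, which encodes cochlin, lay the other way with 4836 and 4154 in the apex and 4036 and 3130.2 in the base, close to the spread between its repeats.

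Most marginal cell genes of the stria vascularis, which makes the endolymph, were higher in the base as well. Atp1b2, a sodium pump subunit gene of marginal cells, had 119 and 112 in the apex, 145 and 91.8 in the middle and 198 and 280 in the base (difference 1.02, SE 0.246). Kcnq1, the potassium channel of marginal cells, had 1.88 and 2.93 in the apex and 7.73 and 27.3 in the base. The basal libraries were the higher in both genes. Of 12 genes of marginal cells, 3 were higher in the base by over 2-fold without overlap and 0 in the apex. Over all genes tested these shares were 3.87% and 4.92%. The marginal cell median of 0.59 was 0.84 without base library 1 and 0.71 without base library 2. Of 9 genes of melanocytes and intermediate cells, 1 was higher in the base and 1 in the apex by that measure. Their median of 0.40 was −0.24 without base library 2.

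Some genes were high in base library 2 alone. Bpifa1, a secreted protein of the airway and middle ear lining, had 6.16 and 0.865 in the apex, 7.85 in base library 1 and 3432 in base library 2. The 17 genes of middle ear mucosa and surface epithelium summed to between 73.2 and 94.8 in the apex, 126 in base library 1 and 3790 in base library 2. Bpifa1 is a member of that list and gave 3432 of the 3790, so the sum mostly repeats this gene. Mobp, a protein of central myelin, had at most 1.17 in the apex and base library 1 and 176 in base library 2. Gfap, an astrocyte filament gene, had 1.27 and 1.47 in the apex and 1.36 and 122 in the base. Dct, a melanocyte gene, had 1.16 and 1.64 in the apex, 1.03 in base library 1 and 444 in base library 2. Middle library 1 was also high for Mobp (654) and Gfap (374). What part surrounding tissue of this kind has in the basal genes was not tested. Without base library 2, the medians of the mucosa and motile cilia lists, 1.68 and 0.95, were 0.45 and −0.27.

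Over all genes tested, 3.87% were higher in the base and 4.92% in the apex by over 2-fold without overlap, the measure used for the counts here. The 10 tested genes of vestibular organs and otoconia had a median of −0.92, with 5 higher in the apex and 0 in the base. These 5 include Ocm, Calb2 and Tectb, which were described above among genes of the cochlea. Stereocilia genes had 3 of 19 higher in the apex (median −0.19), cartilage genes 3 of 9 higher in the base and 1 in the apex (median 0.20, and −0.06 after rescaling to an equal sum), and osteoclast genes 3 of 6 higher in the base (median 1.06, and 0.56 without base library 2). Without base library 2 the stereocilia median was −0.09 and the cartilage median 0.90. The 6 tested genes that the study names in its text had a median of −0.74, and of −0.26 without base library 2, with 2 higher in the apex. B lymphocyte genes had 1 of 6 higher in the base and 0 in the apex, and their median of 0.72 was −0.11 without base library 2. Endothelial genes had a median of 0.27 with 1 of 14 higher in the base and 1 in the apex, which was Emcn with 148 and 107 in the apex and 42.0 and 39.3 in the base. Skeletal muscle and immediate early genes had no member over 2-fold without overlap (8 and 12 tested), and neither had the 5 genes of the Reissner membrane. Of 11 neurotrophin genes 1 was higher in the apex. The 9 tested genes of cell division had a median of 0.76 with 2 higher in the base, at levels up to 40.2 for Pcna, a replication factor. The cell division median was 0.48 without base library 2. The 13 mitochondrial transcripts had a median of 0.63, and of −0.01 without base library 2.

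The middle turn took different places for the apical and basal groups. Among the 571 genes higher in the base by over 2-fold without overlap, the mean of the middle libraries lay between the means of the ends for 481 (84.2%). Among the 726 genes higher in the apex it did so for 325 (44.8%), was above the apical mean for 211 and below the basal mean for 188. Neuronal genes such as Snap25 (360 and 459) and Calb2 were highest in the middle turn, whereas Slc26a5, Ocm and Tectb had their lowest means there. These groups were chosen for ends that lie far apart, which by itself makes a middle mean between them likely. The shares are therefore shaped by the choice, and the difference between them was not tested.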

How the data were processed

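The authors trimmed reads with fastp 0.20.0, aligned them to mm10 with STAR 2.7.3a, retained only reads that mapped to 1 place, and obtained FPKM from StringTie 2.0. The deposited FPKM of 37432 genes were used here, and the read counts and the tests made with DESeq2 1.30.0 were not. Of the gene identifiers, 36831 (98.39%) were found in GENCODE M21. The strand setting and annotation version are not given in the sources used here.

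Each of the 4 libraries compared was divided by its median-of-ratios factor (0.961 to 1.04). The wild-type middle libraries were divided by 0.912 and 0.888, found against the same reference of the 4 libraries. The factors were taken from 12457 genes that reached 1 FPKM in all 4 libraries. The 14743 genes that reached it in at least 2 were tested with limma 3.58.1 in R 4.3.3 on log2(scaled FPKM + 1), with a mean for each turn, a trended eBayes prior (df 2.12 beside 2 residual df), two-sided tests, and p-values adjusted by Benjamini-Hochberg across every tested gene. Calls needed an adjusted p below 0.01 with a change of over 2-fold. A gene overlapped unless both libraries of a turn lay above both of the other. The fit was also run on simulated libraries whose repeats all had the same spread, unlike the basal repeats here. That run therefore does not tell how many true differences the fit finds in these data. Matplotlib 3.10.9 under Python 3.11.15 drew the figures.

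The members and the 38 gene lists (588 symbols, 3 of them not matched in the table) were chosen with earlier results of these data known, and the lists were compiled by hand. The text names, by rule, in each direction the 12 largest differences without overlap among genes whose higher turn averaged 5 scaled FPKM or more, the 3 highest members and the 3 largest differences of each list, and the graded and study-named genes. Not all of these are reported. Other genes, such as those called with the spread of all 12 libraries, Notum, Pou4f3, Cabp2, Espn, Alas2, Car3, Sp7, Dmp1, Bglap2 and the untested red cell genes, were named after their values were seen. The alternatives tried were other pseudocounts (0.1, 0.01), every gene without a filter, a minimum of 5 FPKM, FPKM as deposited, an equal sum, quantile normalization, 6 or 12 libraries in the fit, no trend, a replicate block, other thresholds and each library left out.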

Additional observations from a re-analysis of the deposited data

How the results depend on the processing

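The limma count of called genes was 0 in each direction under the pseudocounts, filters, scalings, the fits without a trend and of 6 wild-type libraries, and, for the 4-library fit, also at an adjusted p under 0.05 or without the fold limit. The smallest adjusted p of these fits lay between 0.0402 (6 wild-type libraries) and 0.352 (no filter). With the spread of all 12 libraries 6 genes were called higher in the base and 9 in the apex. With 1 library left out, the counts ranged from 0 to 657 in the base and from 0 to 610 in the apex. They were 657 and 610 without base library 1, 188 and 349 without base library 2, and 0 without either apical library. A lone basal library is there assumed to vary like the apical ones, whose repeats were the closer.

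The 571 basal and 726 apical genes without overlap and over 2-fold became 869 and 1223 with a pseudocount of 0.1, 896 and 1277 with 0.01, 321 and 454 at 5 FPKM or more (fewer genes tested), and 363 and 1207 after rescaling to an equal sum. With 1 library left out the basal count ranged from 530 to 1150. The sign of the difference turned for Gjb2 with quantile normalization (−0.0474) and for Bmp4 with an equal sum (−0.1347). With 1 library left out, differences that changed sign ranged, always between the values without 1 and without the other basal library, from −0.0449 to 0.2744 for Bmp4, −0.2357 to 7.5423 for Dct, −0.4384 to 0.1632 for Espn, −0.0087 to 5.7029 for Gfap, −0.6447 to 2.66 for Mbp, −0.8614 to 0.4773 for Ntf3, −0.2064 to 3.081 for Sp7 −0.1118 to 1.6025 for Spp1 and −3.4755 to 0.633 for mt-Co2. The cause was not tested.

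With the replicate number as a block, 0 genes were called, 2351 had an unadjusted p under 0.05 and the smallest adjusted p was 0.267. The deviations of same-numbered libraries correlated at 0.0674 over genes, and no source ties the numbers to shared mice. The medians without base library 1 and then without base library 2 were 0.16 and 0.40 for endothelium, 0.23 and 0.79 for skeletal muscle, −1.09 and 1.45 for the Reissner membrane, −0.48 and −0.06 for neurotrophins, 0.72 and −0.14 for immediate early genes, and 0.02 and 0.05 for hedgehog signalling. For BMP signalling the median was −0.29 without base library 1. The depth of the libraries is unknown, so the counting error of low values could not be given.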
